A study of Mus musculus with 30 samples.

Results

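CHD4 and CHD8 were compared by where each was listed on chromatin in untreated mouse embryonic stem cells. Each remodeler has 2 peak lists from cells that had received no IAA, so 4 of the 20 peak lists of the series and 4 of its 30 samples entered the comparison. Peaks of the 4 lists on chromosomes 1 to 19 and X that overlapped by at least 1 bp were joined, which gave 169164 regions. A region was called shared when all 4 lists had a peak in it, CHD4-distinct when both CHD4 lists and neither CHD8 list had one, and CHD8-distinct in the opposite case. There were 27422 shared, 34627 CHD4-distinct and 1953 CHD8-distinct regions, and the remaining 105162 regions had other combinations.

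The study used ChIP-seq, which sequences the DNA recovered with a protein, in the mouse embryonic stem cell line E14. In all samples CTCF carries AID, the auxin-inducible degron through which the auxin IAA directs a protein to degradation. The CHD4 libraries came from cells with the genotype CTCF AID and biotin-CHD4, and the CHD8 libraries from cells with CTCF AID and biotin-CHD8. All were grown on gelatin without serum in a medium with LIF and the inhibitors PD0325901 and CHIR99021, which hold the cells in the naive state and activate Wnt signalling. The remodeler and the cell line that carries its tag therefore change together and cannot be told apart, and the labels do not say whether a line is 1 clone or whether replicates came from separate cultures. Every p-value below comes only from relabelling or regrouping these samples and does not extend to other cell lines.

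CHD4 and CHD8 belong to the family of chromodomain helicase DNA-binding proteins, ATPases that slide, space or evict nucleosomes. CHD4 is the motor of the NuRD complex, which joins nucleosome remodeling to histone deacetylation and restrains genes during stem cell differentiation, and of the ChAHP complex with ADNP and HP1 proteins, which has been mapped to short interspersed repeats of the B2 family. CHD8 is best known from active promoters, from an interaction with CTCF, as a negative regulator of β-catenin targets, and as a gene mutated in autism.

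Single regions show the 3 classes at base level. Each peak was given its percentile by −log10 p within its own list, with 100 the strongest. For each class the region with the highest percentile in its weakest list is shown, at a promoter (region within 1 kb of a start site) and away from promoters. Each is given as the 200 bp around the highest summit on the forward strand of GRCm38. For both shared regions that summit was of CHD4 replicate 2, so these windows need not hold the CHD8 summit. Exons outside the coding sequence were left out, which replaced the Gm7102 region by the next in order and shortened the Cnot3 window to 108 bp. Regions carry the name of the protein-coding gene with the nearest start site, and capitals mark matches to the motifs searched on both strands.
Shared, 839 bp from the start of Taf8, chr17:47503031-47503230: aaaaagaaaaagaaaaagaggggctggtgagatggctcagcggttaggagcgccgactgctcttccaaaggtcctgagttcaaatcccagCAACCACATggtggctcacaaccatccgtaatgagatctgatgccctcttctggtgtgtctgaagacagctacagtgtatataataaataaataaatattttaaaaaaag
Shared, 20137 bp from the start of Hsp90b1, chr10:86685272-86685471: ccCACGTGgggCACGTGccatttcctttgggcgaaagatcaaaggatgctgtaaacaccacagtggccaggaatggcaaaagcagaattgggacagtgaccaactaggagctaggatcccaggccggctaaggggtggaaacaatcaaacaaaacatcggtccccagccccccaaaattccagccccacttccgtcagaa
CHD4-distinct, 816 bp from the start of 2210016L21Rik, chr5:114941242-114941441: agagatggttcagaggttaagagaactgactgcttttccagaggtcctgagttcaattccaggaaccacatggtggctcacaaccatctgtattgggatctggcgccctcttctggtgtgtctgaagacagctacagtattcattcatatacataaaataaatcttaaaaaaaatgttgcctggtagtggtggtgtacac
CHD4-distinct, 174568 bp from the start of Tcf7l2 in an intron of Vti1a, chr19:55567152-55567351: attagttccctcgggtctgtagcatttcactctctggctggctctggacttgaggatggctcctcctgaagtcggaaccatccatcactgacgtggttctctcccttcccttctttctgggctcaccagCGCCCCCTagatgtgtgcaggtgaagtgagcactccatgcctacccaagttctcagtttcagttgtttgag
CHD8-distinct, 8 bp from the start of Cnot3, chr7:3645244-3645351: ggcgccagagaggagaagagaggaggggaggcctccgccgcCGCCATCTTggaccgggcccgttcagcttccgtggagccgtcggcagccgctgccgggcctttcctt
CHD8-distinct, 7503 bp from the start of Klhdc4 in one of its introns, chr8:121821877-121822076: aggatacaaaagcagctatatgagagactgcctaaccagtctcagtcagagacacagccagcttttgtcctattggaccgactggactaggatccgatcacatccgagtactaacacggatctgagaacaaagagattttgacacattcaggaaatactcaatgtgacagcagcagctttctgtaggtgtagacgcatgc
The windows differ in repeat content, which the genome sequence marks by soft-masking. The windows at Taf8 and 2210016L21Rik are soft-masked over 100% of their length, against 14% at the Tcf7l2 region and 28.7% at Cnot3. In the Taf8 window the capitals mark CAACCACAT, a stretch common in B2 repeats, and in the Hsp90b1 window 2 copies of the E-box CACGTG. The Tcf7l2 region holds AGGGGGCG, part of the site read by CTCF, and had a CTCF peak. This stretch and that of B2 were chosen after these windows had been seen. The Cnot3 window, with 71.3% G and C and 11 CpG sites, holds AAGATGGCG, the sequence read by the zinc-finger factor YY1.

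The lists differ in length, which bears on every count of peaks. The CHD4 lists hold 111934 and 187275 peaks and the CHD8 lists 51924 and 40870. Median peak widths were 433 and 119 bp for CHD4 against 553 and 538 bp for CHD8, so the second CHD4 list is made of many narrow peaks. The 4 lists cover 72.1, 37, 41.1 and 30.1 Mb in that order. The lists hold no read counts, so the depth is unknown, and absence from a list does not show absence of the protein.

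Most CHD8 peaks lay where CHD4 also had one, and the reverse was seen for a minority of CHD4 peaks. Of the CHD8 peaks, 85% in replicate 1 and 89.4% in replicate 2 overlapped a peak of at least 1 CHD4 list. Among the strongest 10% of each CHD8 list by −log10 p, 98.9% and 98.8% did. Of the CHD4 peaks, 40% and 41.1% overlapped a CHD8 peak, and 75.9% and 79.5% of the strongest 10%. With the CHD8 lists moved by 100 kb in either direction, which keeps their lengths and breaks their alignment, 4529 and 4721 regions were shared in place of 27422, and 26087 and 25997 were CHD8-distinct in place of 1953. The overlap of the lists as deposited was thus about 6 times that of moved lists of the same length.

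The size of the distinct classes followed list length. With each list reduced to its strongest 40000 peaks, 14909 regions were shared, 6637 were CHD4-distinct and 8903 were CHD8-distinct, so that the larger distinct class was that of CHD8. Such lists keep nearly all of the 40870 peaks of CHD8 replicate 2, but only the stronger part of the CHD4 lists. Peaks of CHD4 replicate 2 are also narrow, and whether equal numbers of peaks stand for equal numbers of sites was not tested. Leaving 1 list out of the definition gave up to 110246 CHD4-distinct regions (without CHD4 replicate 1) and up to 7796 CHD8-distinct ones (without CHD8 replicate 2). The number of distinct regions is therefore given here as a description of these lists and not as a measure of how far each protein binds alone. Replicates resembled each other more than the other remodeler. The Jaccard index, the covered bases in common over all covered bases, was 0.362 between the CHD4 lists, 0.583 between the CHD8 lists and 0.278 to 0.33 across remodelers. The within-remodeler mean exceeded the mean across remodelers by 0.173. The exact one-sided permutation p was 0.333, the smallest that splitting these lists into pairs allows. The difference in mean Jaccard index was 0.0811 without CHD8 replicate 1 and 0.0437 without CHD8 replicate 2. Without CHD4 replicates 1 and 2 the difference was 0.288 and 0.279. Among lists of 40000 peaks the CHD4 pair stood at 0.344 and the closest pair across remodelers at 0.331, a small margin.

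CHD8 peaks lay at promoters more often than CHD4 peaks, and the gap was widest among the strongest peaks. A promoter peak has its summit within 1 kb of a start site of a protein-coding or long noncoding gene. Such peaks made up 16.4% and 19.7% of the CHD4 lists, or 18% ± 2.34 (SD, n = 2), and 29.4% and 35% of the CHD8 lists, or 32.2% ± 3.96 (SD, n = 2). Both CHD8 lists lay above both CHD4 lists, by 14.2 percentage points on average and more than 4 times the pooled SD of 3.25, with an exact permutation p of 0.333 (adjusted p = 0.429 over 9 tests). In lists of 40000 peaks the shares were 24.4% and 30.8% against 35.3% and 35.5%, so the groups still did not overlap, and the difference of -7.83 points was -4.64 without CHD4 replicate 1. With the lists of cells treated for 12 h, in which CTCF is the protein degraded, the CHD8 lists again lay above, and the exact permutation test stratified by time gave a p of 0.0556 for both measures, the smallest of its 36 relabellings.

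The promoter share of CHD8 peaks rose with strength far more than that of CHD4 peaks. Of the 500 strongest CHD8 peaks, 97.8% and 97.2% had their summit at a promoter. Of the 500 strongest CHD4 peaks, 27.6% and 34.8% did. In the weakest 10% of the lists the remodelers overlapped, with 9.72% and 13.5% for CHD4 and 9.98% and 13% for CHD8. The CHD8 share rose mainly over the strongest 3 of 10 strength classes, where it went from 37.2% through 72.5% to 93.1% in replicate 1. Within a list, the median percentile of promoter peaks exceeded that of all other peaks by 20.4 and 16.1 points for CHD4 and by 43.8 and 42.2 points for CHD8, a difference of 24.8 points that was over 10 times the pooled SD of 2.32 (exact permutation p = 0.333, n = 2 against 2).

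**Figure D1:**
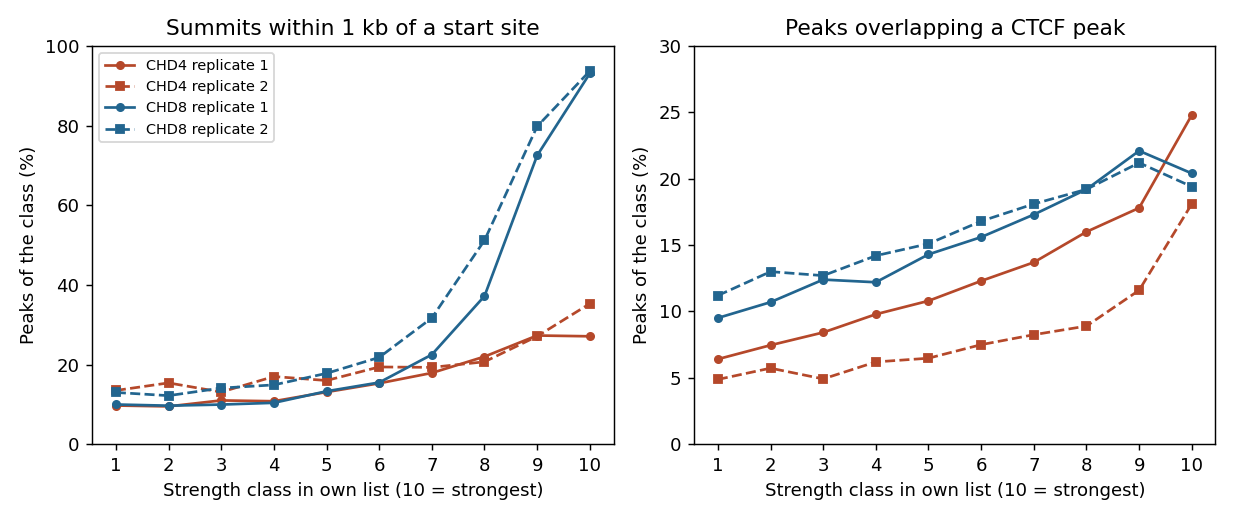
Share of peaks (%, vertical) with the summit within 1 kb of a start site (left) and overlapping a CTCF peak (right), in 10 strength classes of each list by −log10 p (horizontal), 1 line per library. In the strongest class 93.1% and 93.7% of CHD8 peaks are at promoters against 27.1% and 35.3% of CHD4 peaks, while the CTCF share is higher in the strongest than in the weakest class of all 4 lists and lies between 18.1% and 24.8% in the strongest.

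Within the promoter window the CHD8 summits were more tightly placed. The median summit lay 54 and 39 bp downstream of the start site for CHD8, and 58 and 64 bp downstream for CHD4. The middle 50% of CHD8 summits lay between -82 and 143 bp and between -91 and 130 bp. For CHD4 they lay between -205 and 247 bp and between -234 and 326 bp, a span more than 2 times as wide in both lists. The numbers of promoter summits were 18328 and 36863 for CHD4 and 15276 and 14313 for CHD8, and the part of split peaks in this spread was not tested.

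**Figure D2:**
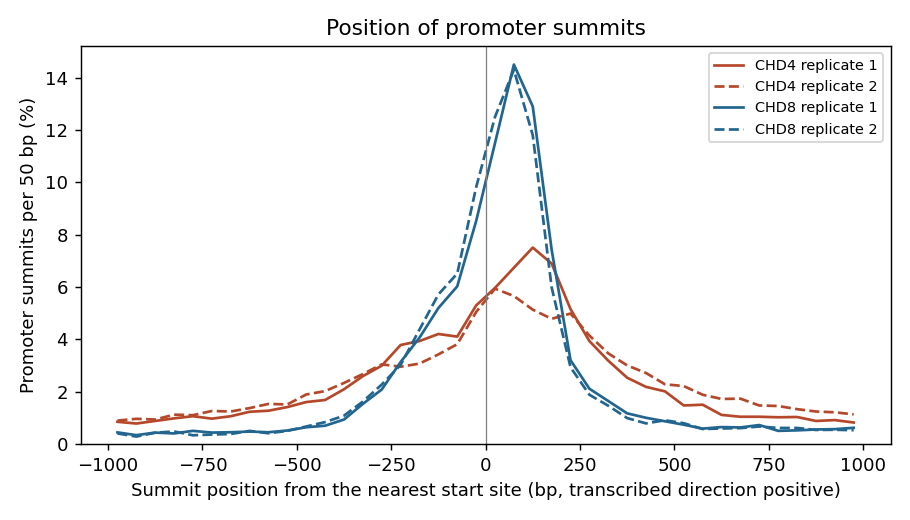
Percentage of promoter summits per 50 bp (vertical) against their position from the nearest start site in bp (horizontal, positive in the transcribed direction), 1 line per library. Both CHD8 curves form a narrow peak just downstream of the start, and both CHD4 curves are lower there and reach further out to either side.

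Most promoters listed for one remodeler were listed for the other. Of 21668 protein-coding genes, 13659 had a peak within 1 kb of a start in both CHD4 lists (63%), 13083 in both CHD8 lists (60.4%) and 12303 in all 4 (56.8%). A further 653 promoters were CHD4-distinct (3.01%), 198 were CHD8-distinct (0.914%) and 6399 had no peak in any list (29.5%). Per library, 65.9% and 66.3% of promoters were occupied by CHD4 and 64.1% and 60.9% by CHD8. The difference of 3.55 points was 1.95 without CHD8 replicate 2 and changed sign in lists of 40000 peaks, where 7915 promoters were in both CHD4 lists (36.5%) and 12934 in both CHD8 lists (59.7%), a difference between library means of -17.9 points. In those equal lists 123 promoters were CHD4-distinct (0.568%) and 2725 were CHD8-distinct (12.6%). CpG-rich promoters, which lie in CpG islands, were occupied in 97.1% and 97.3% of 8721 cases by CHD4 and in 97.3% and 94.6% by CHD8, while CpG-poor promoters were occupied in 23.3% and 23.6% of 8272 cases by CHD4 and in 18.4% and 15.8% by CHD8. In lists of 40000 peaks the CpG-rich values were 73.3% and 73.2% for CHD4 and 96.1% and 94.5% for CHD8, and the CpG-poor order turned, with 11.5% and 9.78% for CHD4 against 16.3% and 15.6% for CHD8.

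What separated the remodelers at promoters was the order of peak strength. The 12303 promoters in all 4 lists were ranked within each list from 0 to 100 by their strongest peak, so that a list's length no longer enters. For 5120 of them (41.6%) both CHD4 ranks were above both CHD8 ranks, and for 4588 (37.3%) both CHD8 ranks were above. These shares are the background against which the gene lists below are read.

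Genes of protein synthesis and other constantly used machinery ranked high for CHD8. All 80 genes of the ribosomal protein list had a peak in both CHD8 lists, and 64 also had one in both CHD4 lists. Their promoter peaks fell into the strongest 10% of the CHD8 lists for 77 and 76 genes, against 14 and 16 in the CHD4 lists. For all protein-coding genes the corresponding shares were 26.1% and 20.9% for CHD8 and 15.1% and 27.4% for CHD4. Among the 64 genes the median promoter rank was 31.6 and 24.6 for CHD4 and 96.3 and 96.3 for CHD8. Both CHD8 ranks were above both CHD4 ranks for 55 of 64 genes, and the opposite held for 5, namely Rpl14, Rpl37a, Rpl39l, Rps13 and Rps21, which were named after their values were seen. The 3 largest differences towards CHD8 over all shared regions were also at such genes. At Rps3a1, a protein of the small ribosomal subunit (chr3:86140780-86143221, summit in an intron 224 bp from the start), the ranks among shared regions were 2.94 and 0.219 for CHD4 and 99.6 and 99.5 for CHD8. At Rpl8, of the large subunit (chr15:76903404-76906210), they were 0.866 and 3.76 against 99 and 99.3. At Mrpl11, of the mitochondrial ribosome (chr19:4961816-4963292), they were 4.85 and 1.1 against 98.9 and 98.6.

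A further 4 ribosomal protein genes (5% of the 80, against 0.914% of all genes) had CHD8-distinct promoters. Percentiles in the CHD8 lists were 99.1 and 98.7 at Rps6, 98.4 and 98 at Rpl36a, 98.4 and 98.5 at Rps4x, and 95.3 and 95.3 at Rps12, with no CHD4 peak within 1 kb of any of them. A strong CHD8 peak thus occurred at each without a listed CHD4 peak. Ribosomal protein genes have many processed copies in the genome, and how the authors placed reads that match several copies is not given in the sources used here. The same order was found in related lists. Of 71 mitochondrial ribosomal protein genes in all 4 lists, CHD8 ranked above at 54 and CHD4 at 8. Mrps34 was CHD8-distinct at percentiles 94.8 and 93.3, which makes 1.28% of that list, near the 0.914% of all genes. Of 30 proteasome subunit genes, whose products form the main protein-degrading machine, CHD8 ranked above at 21 and CHD4 at 4. Psmb7 (98.4 and 97.3), Psmd4 (91.4 and 88.4) and Psmd10 (88.4 and 87.8) were CHD8-distinct, 7.69% of the 39 proteasome genes. Subunits of RNA polymerase II and of the general factors that load it had CHD8 above at 21 of 26 promoters and CHD4 above at 5. Clustered histone genes had CHD8 above at 34 of 58 and CHD4 at 10, at low median ranks of 28.6 and 27.6 for CHD4 and 50.5 and 48.4 for CHD8. Several neighbouring histone genes have the same ranks in every list because they share a peak, so these counts are of genes and not of separate sites.

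Genes of stem cell identity and of later lineages were ordered the other way. All 12 core pluripotency genes had promoter peaks in all 4 lists, with median ranks of 85.6 and 79.3 for CHD4 and 28 and 34 for CHD8. CHD4 ranked above at 10 of the 12, CHD8 at 1 (Dppa4, named after its values were seen), and Sall4 overlapped. Pou5f1, the gene of the pluripotency factor OCT4 (start at chr17 position 35506018), had promoter ranks of 98.4 and 99.2 for CHD4 and 41.3 and 36.3 for CHD8. Nanog, another factor of that network (start at chr6 position 122707489), ranked at 97.8 and 98.6 against 27.4 and 32.4. At Sox2, the partner of OCT4, the ranks were 64.6 and 78 against 28.6 and 49.7. In the list of naive genes the pattern was less even, with CHD4 above at 5 of 10 promoters and CHD8 at 2. Zfp42, a marker of the naive state, had ranks of 29 and 66.4 for CHD4 and 84.7 and 86.9 for CHD8. Dppa3, a maternal factor that protects methylation imprints, was CHD4-distinct at percentiles 97.1 and 94.1, also in lists of 40000 peaks.

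The promoters of lineage regulators, transcription factors that set up later tissues, all went one way where they could be ranked. Of 24 such genes 15 had peaks in all 4 lists, and at all 15 both CHD4 ranks were above both CHD8 ranks, with medians of 51.6 and 55.4 against 10.9 and 17.4. Eomes, for mesoderm and trophoblast, ranked at 66.4 and 94.8 for CHD4 and 10.9 and 10.6 for CHD8. Gata2, for blood, ranked at 85.8 and 90.7 against 18.5 and 30.7. Sox1, for neural progenitors, ranked at 79.2 and 80.6 against 31 and 29.5. Cdx2, which directs trophoblast, was CHD4-distinct at percentiles 53.8 and 79.3, and Sox17, which directs endoderm, at 35.2 and 4.09. These CHD4-distinct promoters made 8.33% of the 24 genes, against 3.01% of all genes. Of 11 genes of the formative and primed states, CHD4 ranked above at 9 and CHD8 at 0, and of 16 germline genes at 13 and 1. Hox genes, which pattern the body axis, had low ranks for both proteins. CHD4 ranked above at 13 of 29 and CHD8 at 5, with medians between 21.3 and 35.8. Hoxb1 (41.4 and 66.3) and Hoxd12 (41.5 and 56.8) were CHD4-distinct, 5.13% of the 39 Hox genes against 3.01% of all genes.

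Wnt target genes were examined because CHD8 is known as a regulator of β-catenin. At 12 promoters in all 4 lists CHD4 ranked above at 10 and CHD8 at 0, with medians of 59.8 and 46 against 22.9 and 20.7. Axin2, a feedback inhibitor of the pathway (start at chr11 position 108920349), ranked at 95.3 and 97.2 for CHD4 and 61.8 and 50.3 for CHD8. Targets of p53, another pathway linked to CHD8, were mixed, with CHD4 above at 7 of 17 and CHD8 above at 8. Cdkn1a, which halts the cell cycle (start at chr17 position 29090979), had promoter ranks of 95 and 45.8 for CHD4 and 35 and 51.2 for CHD8, which overlap, and the promoter of Fas, a death receptor, was CHD4-distinct at 31 and 89.8. Autism risk genes stood at medians of 74 and 78 for CHD4 and 66.5 and 65.9 for CHD8, with CHD4 above at 9 of 21 and CHD8 above at 6, close to the background, and Tbr1, a cortical regulator, was CHD4-distinct at 6.47 and 5.28.

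Each remodeler gene was listed in all 4 lists. Chd8 itself (start at chr14 position 52257780) had promoter ranks of 57.6 and 49.2 for CHD4 and 86.4 and 86.7 for CHD8. Chd4 (start at chr6 position 125095981) had ranks of 87.4 and 45.4 against 50.8 and 50, which overlap. Ctcf (start at chr8 position 105636579), the target of the degron, was near the top of all lists at percentiles of 97.5 and 99.5 for CHD4 and 99.9 and 99.9 for CHD8. Of 13 CTCF and cohesin genes, CHD8 ranked above at 7 and CHD4 at 3.

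Gene families used in sensory or epithelial tissues had few peaks. Of 1092 olfactory receptor genes, 1064 had no promoter peak in any list, 12 had one in both CHD4 lists and 0 in both CHD8 lists. The 11 CHD4-distinct promoters make 1.01% of the family, below the 3.01% of all genes, and Olfr212 was the strongest at percentiles 84.3 and 94.7. Of 49 keratin genes, structural genes of epithelia, 10 (20.4%) were in both CHD4 lists and 3 (6.12%) in both CHD8 lists, against 63% and 60.4% of all genes. CHD4-distinct were 5 of them (10.2%, against 3.01% of all genes). Krt17 (68.1 and 86.8), Krt19 (67.4 and 67.6), Krt7 (77.7 and 54.5) and Krt80 (64.3 and 41.9) were the strongest. Zinc-finger genes of the Zfp series leaned to CHD8. CHD8 ranked above at 152 of 293 and CHD4 at 75, against 37.3% and 41.6% of all promoters, and at 12 h the counts were 148 and 74 of 275. Of all 391 such genes 9 (2.3%, against 0.914% of all genes) were CHD8-distinct, such as Zfp808 (82.9 and 84.2), and 7 (1.79%, against 3.01%) were CHD4-distinct, such as Zfp988 (92.9 and 94.9). Among 20 imprinted genes, Slc38a4 (79.4 and 85.1) and Plagl1 (5.85 and 20.5) were CHD4-distinct and Magel2 (40.5 and 60.6) was CHD8-distinct. These shares were 10% (against 3.01% of all genes) and 5% (against 0.914%).

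Several gene lists were read again in libraries that had not been used to rank these promoters, and those with the widest gaps are given first. In the 4 lists from cells treated with IAA for 12 h, 11510 promoters had all peaks, with CHD4 above at 42.3% and CHD8 above at 37.8%. CHD8 ranked above at 45 of 53 ribosomal protein genes and CHD4 at 3. CHD4 ranked above at 13 of 13 lineage regulators, 10 of 11 core pluripotency genes and 11 of 12 Wnt targets, with CHD8 above at 0 of each. Lists near the background did not keep an order. Autism risk genes had CHD4 above at 5 of 20 and CHD8 at 7, p53 targets CHD4 above at 6 of 18 and CHD8 at 4, and NuRD subunits went from 6 each of 14 to 5 for CHD4 and 7 for CHD8 of 15. Imprinted genes did keep the order of counts, with CHD4 above at 8 of 14 and CHD8 at 4 in untreated cells, and 6 of 9 and 3 at 12 h. Their medians at 12 h, 62.9 and 70 for CHD4 against 65 and 66.3 for CHD8, overlapped. These cells carry the same tags as the untreated ones, so the cell line still changes with the remodeler.

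**Figure D3:**
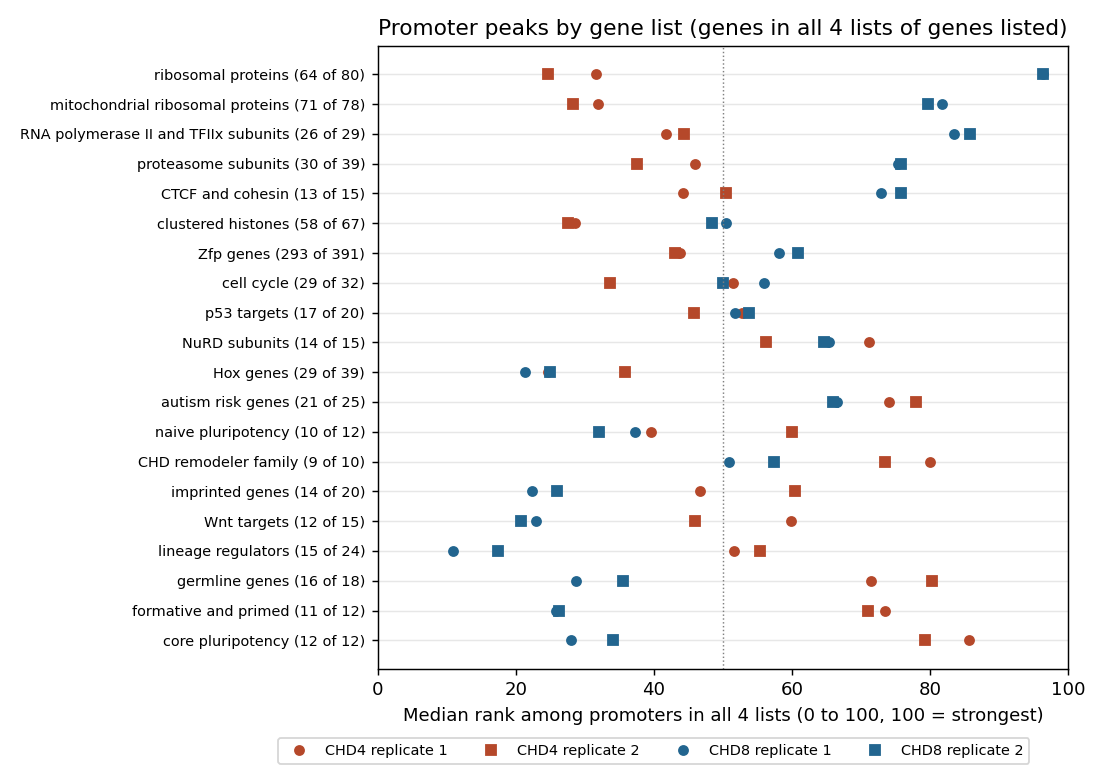
Median promoter rank (horizontal, 0 to 100 within the 12303 promoters in all 4 lists, 100 strongest) for each gene list (vertical, with the number of its genes in all 4 lists of those listed), 1 point per library, for lists with at least 9 such genes. Ribosomal protein genes lie at 96.3 in both CHD8 lists and at 31.6 and 24.6 in the CHD4 lists, while core pluripotency genes lie at 28 and 34 for CHD8 and at 85.6 and 79.3 for CHD4.

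Across all shared regions the 2 proteins ordered their sites differently. Spearman's correlation of the ranks of the 27422 shared regions was 0.73 between the CHD4 lists and 0.9 between the CHD8 lists, against 0.17 to 0.22 across remodelers. These are descriptions over regions, which share their libraries, and carry no test. Summits within a shared region were a median of 129 bp apart between the CHD4 lists, 58 bp between the CHD8 lists and 158 to 182 bp across remodelers. Shared regions at promoters, 12830 in number, had median ranks of 51.8 and 55.4 for CHD4 and 74.3 and 73.9 for CHD8. The 14592 away from promoters had 48.3 and 44.4 for CHD4 and 31.7 and 32.9 for CHD8. Both CHD4 ranks were above both CHD8 ranks at 9820 shared regions, of which 30.5% were at promoters, and the opposite held at 9454, of which 71.1% were at promoters.

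**Figure D4:**
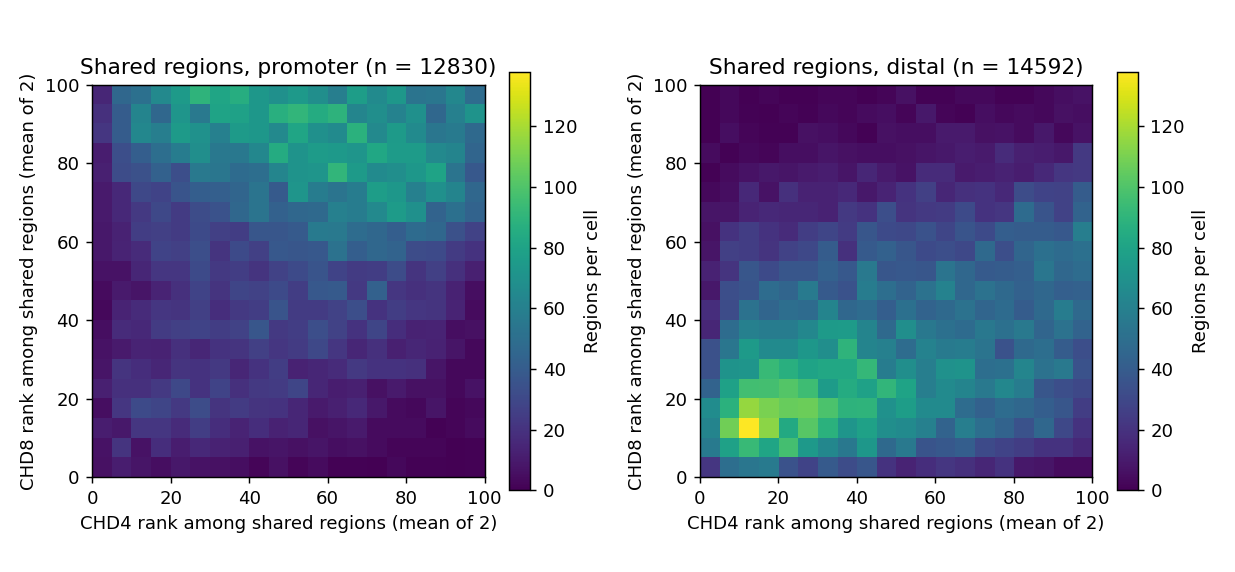
Number of shared regions (colour) by their mean CHD4 rank (horizontal) and mean CHD8 rank (vertical) among shared regions, each from 0 to 100, for the 12830 promoter regions (left) and the 14592 others (right). Promoter regions gather at high CHD8 ranks over the whole range of CHD4 ranks, and the others gather at low CHD8 ranks.

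Several regions held strong peaks of both proteins. The 4 strongest shared promoters were at Taf8, a TFIID subunit, Zfp335, Med16, a Mediator subunit, and Prpsap1, all at percentiles of 99.5 or above in all 4 lists. The Taf8 region (chr17:47501173-47505851, intergenic) had fold enrichments, the authors' own ratio to background, of 29.3 and 23.8 for CHD4 and 62.7 and 52.8 for CHD8. Away from promoters the strongest were nearest to Hsp90b1, Srcin1, Hnrnpf and Zfp518a, at percentiles between 98 and 99.9. Of these 8 regions, all had a SMARCA5 peak in both lists and 4 had a CTCF peak. Of all shared regions, 65.9% and 77.2% had a peak in the SMARCA5 lists and 20.7% had a CTCF peak. Shared regions with a strong CHD4 and a weak CHD8 peak were led by an intron of Ercc4, a DNA repair gene (chr16:13117387-13121798), with ranks of 97 and 98.4 against 3.67 and 0.0456. An intron of Cnn2 followed (chr10:79990794-79992300), with 99.5 and 98.8 against 6.09 and 3.06. The third was an intergenic region near Rbm27, with 98.6 and 94.3 against 2.11 and 3.52.

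The strongest CHD4-distinct regions away from promoters lay in introns or between genes. The regions named by Tcf7l2 and Lbr were in introns of Vti1a and Dnah14, and those named by Cpne4 and Cand2 were intergenic. Those near Tcf7l2, Cpne4 and Cand2 reached percentile 100 in both CHD4 lists and that near Lbr reached 100 and 99.9, with no CHD8 peak in either list. The regions at Tcf7l2, Cpne4 and Cand2 overlapped a CTCF peak, and that at Cand2 also an SMC1A peak. Of all CHD4-distinct regions away from promoters, 11.9% had a CTCF peak and 5% an SMC1A peak. Enrichments were 49.8 and 40.1 at the Tcf7l2 region (chr19:55566956-55567620) and 35.3 and 35.1 at the Cpne4 region (chr9:104444910-104445394, intergenic). At promoters the strongest were Gm7102 (99.8 and 99.9), 2210016L21Rik (99.5 and 99), Heatr5a (98.4 and 99) and a region at the long noncoding gene 1700062C10Rik (98.9 and 97.7). The nearest protein-coding start to the last, that of Oxsm, was 205076 bp away.

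The strongest CHD8-distinct regions were promoters. Cnot3, a subunit of the CCR4-NOT deadenylase (chr7:3644260-3646804), was at percentile 100 in both CHD8 lists, with enrichments of 137.2 and 105. Ensa stood at 99.8 and 99.8, Smdt1, part of the mitochondrial calcium uniporter, at 99.8 and 99.6, and Nmt1, an N-myristoyltransferase, at 98.8 and 98.7. These promoters were not without CHD4 in every list of the series. In the cells treated for 12 h, Cnot3 had a peak in 1 of 2 CHD4 lists, Smdt1 in both, and Ensa and Nmt1 in neither. Away from promoters the strongest CHD8-distinct regions were weaker in rank, at Klhdc4 (91.7 and 90.2), Zfp185 (90.7 and 89.6), Zbtb40 (89 and 87.8) and 9130204L05Rik (92.3 and 87).

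CTCF overlap did not separate the remodelers in lists of 40000 peaks, but it did among their 500 and 5000 strongest peaks. A CTCF peak of the untreated cells was overlapped by 12.7% and 8.25% of CHD4 peaks and 15.4% and 16.1% of CHD8 peaks, against 2.71%, 1.72%, 3.45% and 3.35% with the peaks moved by 100 kb. The difference of -5.23 points was -2.99 without CHD4 replicate 2 and became 0.0925 points in lists of 40000 peaks, where the shares were 18.7% and 14.6% against 16.8% and 16.2% (exact permutation p = 1, n = 2 against 2). Among the 500 strongest peaks the order was the reverse of that of promoters. CTCF peaks were overlapped by 43.6% and 39.8% of these CHD4 peaks and by 23.2% and 21.2% of these CHD8 peaks, and SMC1A peaks by 38.4% and 36.4% against 17.8% and 15.8%. Among the 5000 strongest peaks the CTCF shares were 28.7% and 25.1% against 20.3% and 19.8%. Among the 10000 strongest the remodelers overlapped, with 25.5% and 20.9% for CHD4 against 21.2% and 20.1% for CHD8. Of the strongest 10% of each list, 16.7% and 11.1% of CHD4 peaks overlapped CTCF away from promoters. For CHD8, whose peaks in this class were mostly at promoters, 1.93% and 1.59% did. Within a list, peaks on CTCF exceeded other peaks in median percentile by 18.6 and 20.2 points for CHD4 and 13.5 and 10.1 for CHD8. That difference of 7.63 points was not found in the 12 h lists, where it was -3.84 points and the groups overlapped.

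CTCF sites were also read from the side of CTCF, which has 1 library, so that intervals cover counting over sites only. SMC1A is a subunit of cohesin, the ring that extrudes loops and halts at CTCF. Of 29926 CTCF sites, 4412 had all 4 remodeler peaks, 3630 were CHD4-distinct, 337 CHD8-distinct and 13595 had neither protein in any list. An SMC1A peak was present at 54.8% of the first group (95% Clopper-Pearson interval 53.3 to 56.3), 34% of the CHD4-distinct sites (32.5 to 35.6), 56.7% of the CHD8-distinct sites (51.2 to 62) and 43.6% of sites with neither (42.7 to 44.4). The interval of CHD4-distinct sites lay below that of sites with neither protein. Away from promoters the shares were 60.9%, 34.5%, 60.7% and 43.7%, with CHD4-distinct sites again the lowest. CTCF strength also differed between the groups, with median CTCF percentiles over all sites of 72.3, 45.2, 65.3 and 42 in the same order. CHD4-distinct sites thus had a higher median than sites with neither protein, and a lower SMC1A share. The part of CTCF strength in the SMC1A shares was not tested.

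The classes differed in the other remodelers, whose lists did not define them. SMARCA4, the BRG1 ATPase of BAF complexes, had a peak in 93.5% and 85.8% of shared regions, 49% and 38.8% of CHD4-distinct regions and 48.2% and 28.5% of CHD8-distinct regions. SMARCA5, the ISWI ATPase, had one in 65.9% and 77.2%, 17.8% and 23.6%, and 15.4% and 23.1%. Shared regions were thus those with most remodelers, while the values of both distinct classes overlapped for SMARCA4 and for SMARCA5. The median width of a region was 1358 bp for shared, 448 bp for CHD4-distinct and 506 bp for CHD8-distinct ones, and its part in these shares was not tested beyond moving the regions by 100 kb. Promoters made up 46.8% of shared, 5.65% of CHD4-distinct and 18.8% of CHD8-distinct regions. A CTCF peak was found in 20.7%, 11.7% and 9.42% of them in that order, against 5.54%, 2.28% and 2.61% of regions moved by 100 kb. The classes were kept in part in the 12 h lists of the same proteins, where 79.3% of shared, 34.6% of CHD4-distinct and 24% of CHD8-distinct regions had the same combination of peaks.

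**Figure D5:**
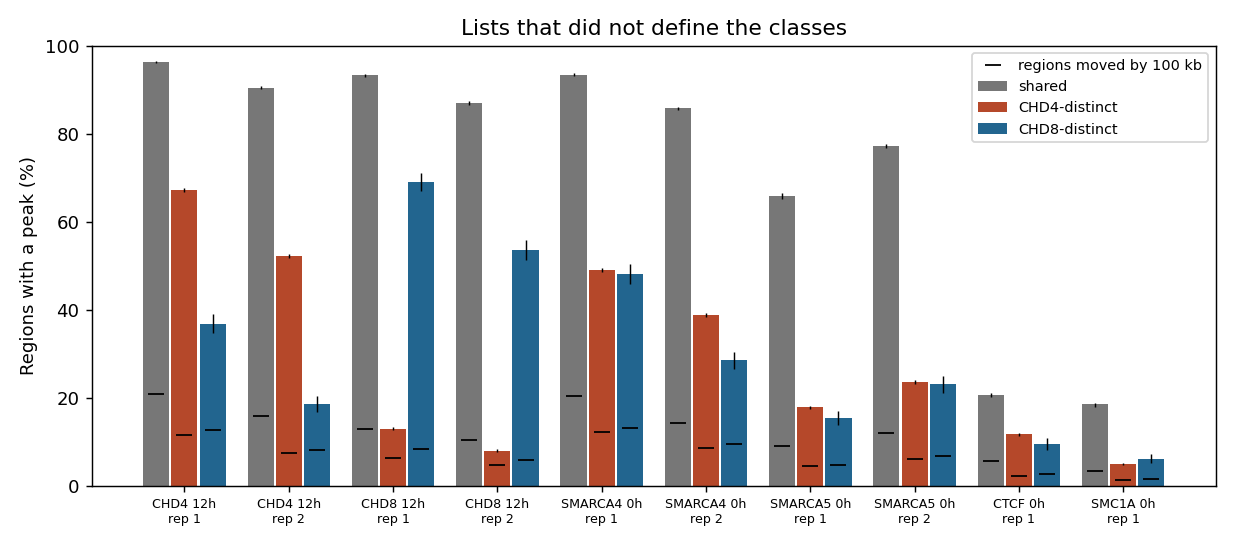
Percentage of shared, CHD4-distinct and CHD8-distinct regions (bars) with a peak in lists that did not define the classes (horizontal), with 95% Clopper-Pearson intervals as error bars and the value for regions moved by 100 kb as a black dash. Shared regions are the highest in all 10 lists, and CHD8-distinct regions exceed CHD4-distinct ones in the CHD8 lists of 12 h.

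Away from promoters the distinct classes differed in sequence. In the 200 bp around the summit, more than 50% of the bases were soft-masked as repeats in 38% of 32670 CHD4-distinct windows, 17.9% of 14592 shared windows and 11.5% of 1585 CHD8-distinct windows, against 24%, 23.3% and 23.5% in windows moved by 100 kb. The B2 stretch CAACCACAT, was found in 9.86% of CHD4-distinct windows (1.29% moved), 2.52% of shared windows (1.55% moved) and 0.252% of CHD8-distinct windows (1.29% moved), and in 0.115% of windows at all protein-coding start sites. In each list as a whole it occurred at 7.37% and 3.56% of CHD4 summits away from promoters and at 0.415% and 0.452% of CHD8 summits. The lists of the 12 h cells gave 3% and 2.32% for CHD4 and 0.405% and 0.393% for CHD8. SMARCA4 summits of the untreated cells stood at 0.605% and 0.551% and SMARCA5 summits at 1.31% and 1.09%, all below CHD4. Among the strongest 10% of CHD4 peaks the share was 12.2% and 6.34%. How reads that match many copies of a repeat were treated is not given in the sources used here, and its part in these shares was not tested.

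CHD8-distinct windows away from promoters held some of the motifs found at start sites, and few of others. The E-box CACGTG was found in 10.9% of them, 3.46% of CHD4-distinct and 6.44% of shared windows, and in 5.65% of windows at all protein-coding start sites. The YY1 motif AAGATGGCG was found in 4.67%, 0.383% and 1%, against 1.89% at start sites. The NRF1 motif GCGCATGCG was found in 2.84%, 0.0306% and 0.548%, against 1.83% at start sites. The GC box GGGGCGGGG was found in 1.77% of CHD8-distinct and 2.8% of shared windows, against 12.7% at start sites. The ETS motif CCGGAAGTG was found in 0.252% and 0.425% (start sites 2.37%), the CRE motif TGACGTCA in 0.252% and 0.439% (2.08%) and the Kaiso motif TCTCGCGAG in 0.0631% and 0.0411% (0.725%). Windows moved by 100 kb held the E-box, YY1 and NRF1 motifs in 2.74%, 0.284% and 0.0946% of CHD8-distinct cases. Among the strongest 10% of CHD8 peaks, YY1 stood at 7.56% and 8.56% of the 357 and 257 summits away from promoters. CHD4-distinct windows instead held 2 motifs of the pluripotency network more often. The ESRRB motif TCAAGGTCA was found in 1.59% of CHD4-distinct and 0.694% of CHD8-distinct windows (0.551% and 0.757% moved), and the octamer ATGCAAAT in 2.03% and 0.757% (1.27% and 0.883% moved). Shared windows lay close to CHD4-distinct ones for both, at 1.7% and 1.77%, and start sites held them in 0.175% and 0.9%. The CTCF core CCANNAGGG was nearly level over the classes, at 5.6%, 4.42% and 5.93% of CHD4-distinct, CHD8-distinct and shared windows and 4.22% of start sites. The separate stretch AGGGGGCG was found in 1.67%, 0.883% and 2.12%, and in 6.09% of start sites.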

How the data were processed

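Peak lists from ChIP-seq of 4 libraries were compared, with the lists of the other proteins and of the cells treated for 12 h as references; the 10 input samples were not used here. Samples were grouped by the genotype and treatment in the labels. Per the submitters' processing notes, Trim Galore, Bowtie2, MACS2 and deepTools were used, and the builds mm10 and hg38 are named; settings, control and treatment of multiply matching reads are not given in the sources used here. Each deposited list belongs to 1 sample and has 10 columns without a header. Per the narrowPeak layout and the values, the authors' columns give a score, a fold enrichment (ratio to background), −log10 p and −log10 q values, and the summit's offset in bp. All peak ends lay within the chromosome lengths of GRCm38, whose RefSeq sequence was used with the GENCODE M21 basic annotation. These values were used only to rank or filter peaks within a list.

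Peaks overlapped by at least 1 bp. Promoter peaks have a summit, and promoter regions any base, within 1 kb of a start of a protein-coding or long noncoding gene. Equal lists hold the 40000 peaks with the highest −log10 p. CpG-rich promoters have an observed/expected CpG ratio of at least 0.6 and at least 55% G and C within 500 bp of the start. Libraries were the units of 9 exact permutation tests with Benjamini-Hochberg adjustment. They were two-sided, except that of the Jaccard index, which was one-sided. With 2 lists against 2, none allows a p below 0.333. The compared proteins, gene lists and motifs were chosen with earlier results of these data known. Named regions are the 4 per class and place with the highest minimum percentile over the defining lists (under 10 kb wide), the 3 largest rank differences in each direction, the distinct members of each gene list (up to 4) and a fixed set of stem cell and remodeler genes; other genes were chosen as examples after their values were seen. Alternatives were a −log10 q of at least 5, equal lists, summits with 100 bp to either side, other promoter windows and CpG thresholds, the 12 h lists, a replicate block, and each library left out in turn. Class calling, overlaps and tests were tested on simulated data with known classes and recovered them. Python 3.11.15, numpy 2.4.6, pandas 2.3.3, scipy 1.17.1, pysam 0.24.0 and matplotlib 3.10.9 were used.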

Additional observations from a re-analysis of the deposited data

How the results depend on the processing

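Of 115 alternative values over 12 results, 91 kept their direction or, for counts of regions, stayed within 1.5 times. The 91 include the values with the replicate block, which leaves each difference unchanged by construction. The promoter share and the rank of promoter peaks kept their direction under every alternative run. The difference in CTCF share (CHD4 minus CHD8) of -5.23 points was between -7.48 and -2.99 when leaving out 1 library and 0.0925 in the strongest 40000 peaks of each list. In those equal lists it was -1.24 at a −log10 q of at least 5, -1.72 in the 12 h libraries, -0.814 with both times, and between -1.96 and 2.14 when leaving out 1 library (-1.96 without CHD4 replicate 1 and -0.21 without CHD8 replicate 2). The rank difference of CTCF peaks, 7.63, was -3.84 in the 12 h libraries. Peaks over 1 kb from a start site, an alternative chosen after seeing the data, kept the direction of the 3 CTCF results. The difference in occupied promoters, 3.55 points, was -4.33 at a −log10 q of at least 5 and -17.9 in the strongest 40000 peaks. The CpG promoter contrast difference of -0.19 log2 odds ranged from -0.56 to 0.18 when leaving out 1 library, the latter without CHD8 replicate 1 and -0.56 without CHD8 replicate 2. It was -1.24 at a −log10 q of at least 5, -2.07 in the strongest 40000 peaks and -0.67 with the stricter CpG threshold, where the groups no longer overlapped (exact permutation p = 0.333 in place of 1).

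Shared regions numbered 27422, and 16234 at a −log10 q of at least 5, 14909 in the strongest 40000 peaks and 16215 with summits and 100 bp to either side. CHD4-distinct regions numbered 34627, and 15731 and 6637 under the first 2 of these; leaving out 1 library gave 36881 to 110246, with 110246 without CHD4 replicate 1 and 67129 without CHD4 replicate 2. CHD8-distinct regions numbered 1953, and 8903 in the strongest 40000 peaks, 4553 with summits and 1269 when more than 1 kb from any CHD4 peak; leaving out 1 library gave 3294 to 7796, with 3617 without CHD4 replicate 1, 4350 without CHD8 replicate 1 and 7796 without CHD8 replicate 2. Fewer lists in the definition make a class larger by construction.

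The replicate numbers only name the libraries, and no label pairs them. With the replicate block the promoter share difference was -14.2 points by construction, since the block enters only the p-value. That p-value was 0.5 (exact permutation test, the lower limit for 2 pairs). The directions of all 8 results run were fixed in the same way, so this alternative could not change them. Depth is unknown, so weak sites missing from the shorter CHD8 lists cannot be told apart from sites without CHD8.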
